A study of Mus musculus with 10 samples.

Results

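The genes described here are 8 matrix metalloproteinases, Mmp2, Mmp3, Mmp8, Mmp9, Mmp10, Mmp12, Mmp13 and Mmp14, and the inhibitor Timp1. They were chosen by name and make up 9 of the 23364 genes in the deposited tables. Mmp7 was left out of the list because in mice it is known as a product of Paneth cells, and its values are given with the other Mmp genes. Poly(A) RNA was sequenced from crypts of the mouse distal colon, which were released by shaking in EDTA, a chelator of calcium. The AOM+DSS group (3 libraries) came from mice given azoxymethane, a DNA-alkylating carcinogen, and then dextran sulfate sodium, and stands for colon cancer induced in inflamed tissue. The DSS group (4 libraries) came from mice given dextran sulfate sodium alone, which injures the colon lining and inflames it. The control group (3 libraries) was untreated. The sources used here give no strain, age, dose or time. Whether each library came from its own animal is not stated in the labels, and the spread behind the p-values is that between these libraries, which may be technical.

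Matrix metalloproteinases are zinc-dependent enzymes that cut collagens, gelatin, elastin and other proteins outside the cell. Most are secreted as inactive precursors and switched on by plasmin, by other proteases or by each other, and the 4 tissue inhibitors of metalloproteinases (Timp genes) bind and block them. In the colon they are known mainly as products of fibroblasts, macrophages, neutrophils and wound-edge epithelium, and several are induced by interleukin 1 and tumor necrosis factor through the transcription factor AP-1.

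Among the 9 genes, 5 lie in the Mmp gene cluster of chromosome 9 (Mmp13, Mmp12, Mmp3, Mmp10 and Mmp8). The others lie on chromosome 2 (Mmp9), 8 (Mmp2), 14 (Mmp14) and X (Timp1). RefSeq promoter entries were found for 7 of the 9 genes, all but Mmp2 and Mmp9. The windows of the clustered genes are shown because these neighbours reached different levels in the same libraries. Each window holds the 100 bases before an annotated start, 5′ to 3′ on the plus strand of GRCm38.p6, which is not the mm9 build of the expression files. Capitals mark the AP-1 motif TGANTCA, which reads the same on both strands.
Mmp13, chr9:7272414-7272513: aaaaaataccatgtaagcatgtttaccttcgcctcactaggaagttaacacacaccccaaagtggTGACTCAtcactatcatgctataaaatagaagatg
Mmp12, first start, chr9:7344297-7344396: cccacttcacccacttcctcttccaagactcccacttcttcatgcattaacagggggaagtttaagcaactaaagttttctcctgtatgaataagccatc
Mmp12, second start, chr9:7347274-7347373: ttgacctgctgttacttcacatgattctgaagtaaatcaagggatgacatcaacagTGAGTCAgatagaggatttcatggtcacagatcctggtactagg
Mmp3, chr9:7445722-7445821: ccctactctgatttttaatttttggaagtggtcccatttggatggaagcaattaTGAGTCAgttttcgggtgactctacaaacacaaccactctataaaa
Mmp10, chr9:7502242-7502341: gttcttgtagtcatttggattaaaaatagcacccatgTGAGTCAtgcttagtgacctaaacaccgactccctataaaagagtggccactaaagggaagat
Mmp8, chr9:7558329-7558428: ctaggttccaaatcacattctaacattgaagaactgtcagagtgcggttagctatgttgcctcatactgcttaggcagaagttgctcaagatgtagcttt

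The AP-1 motif began at position -35 relative to the start in Mmp13, -44 at the second Mmp12 start, -46 in Mmp3 and -63 in Mmp10. No match lay in the 250 bases before the start of Mmp8, Mmp14 or Timp1. Of 32851 mouse promoters in the same table, 6.75% held the motif within 250 bases. The letters TATAAA, searched on both strands, stood at -16 in Mmp13, -7 in Mmp3 and -29 in Mmp10, and were found in 12.4% of all promoters. These matches describe the sequence and were not tested as binding sites.

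The deposited tables give group means of normalized reads, that is, read counts scaled by each library's size factor. From these means, whole reads were recovered for all 9 genes in all 10 libraries. Within a group, libraries are lettered from the deepest (a) downwards, which says nothing of the replicate numbers in the labels. Size factors, which give relative depth, were 0.905 to 1.34 in AOM+DSS, 0.645 to 1.27 in DSS and 0.944 to 1.04 in control. Recovered reads came to 16165300 to 23593132 per AOM+DSS library and 14840461 to 16504667 per control library. In DSS they came to 4000589 to 7790051, because the highest genes could not be resolved among 4 libraries.

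The labelled tissue, colon epithelium, was checked on 9 epithelial marker genes, among them Epcam and Cdh1. In the authors' deposited table, their AOM+DSS means lay between 3549 and 57412 normalized reads. None of the 9 passed the test against control in either treatment, with a lowest adjusted p of 0.407 in AOM+DSS and 0.296 in DSS (DESeq, the authors' deposited table). Other cell types were present, and some libraries stood apart by their markers. Summed over 12 fibroblast markers, control library b held 2773 normalized reads, against 560.0 and 598 in the other controls. The sum over 8 smooth muscle markers was 14184 normalized reads in AOM+DSS library c, against 1358 and 1408 in the others of that group. Over 11 neutrophil markers, AOM+DSS library b held 12292 normalized reads and DSS library b 5564. DESeq in the authors' deposited table called Fn1 higher and Pdgfrb lower in AOM+DSS among 12 fibroblast markers, and only Pdgfrb, lower, in DSS. Among 7 T and NK cell markers it called 1, Gzmb, higher in both treatments. It called none of the smooth muscle, endothelial, and B and plasma cell markers (8 each) in either treatment. Over all tested genes, DESeq called 5.54% higher and 3.35% lower in AOM+DSS, and 2.61% higher and 1.78% lower in DSS. Limma called 3 of 6 tested B and plasma cell markers higher in DSS, where it called 2.88% of 15520 genes higher. In bulk samples, fewer cells of a type and less RNA per cell cannot be told apart.

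The first comparison asks how the metalloproteinases differ from untreated crypts in the tumor model. Macrophage elastase Mmp12, stromelysin Mmp10, gelatinase Mmp9, collagenase Mmp13, membrane-bound Mmp14 and the inhibitor Timp1 were higher in AOM+DSS than in control. By the deposited means of the authors, Mmp12 was 131-fold, Mmp9 78.4-fold, Mmp13 14.4-fold, Timp1 6.83-fold and Mmp14 2.08-fold higher. Mmp2, Mmp3 and Mmp8 did not pass. In all, 6 of 9 genes were called higher and 0 lower at a DESeq adjusted p under 0.05, in a table where 5.54% of 18334 tested genes were called higher and 3.35% lower. The median log2 fold change of the 9 genes was 3.84, against 0.04 over all genes tested. Levels did not overlap between the groups for 8 of the 9 genes, the exception being Mmp3, while 20.8% of 18209 genes were higher in every AOM+DSS library. Limma on the recovered reads called 7 of 9 higher, adding Mmp8, where it called 10.8% of genes higher. Its count was 3 without AOM+DSS library a, control library a or control library c, and 9 without control library b. For fits with a library left out, here and below, the share of all genes called was not computed.

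The second comparison asks the same of inflammation alone. No gene of the 9 passed in DSS against control, by DESeq in the authors' deposited table or by limma, where DESeq called 2.61% of 18099 genes higher and 1.78% lower, and limma called 2.88% of 15520 higher. At an unadjusted p under 0.05, DESeq had 2 of the 9 (Mmp9 and Mmp12) and limma 2 (Mmp8 and Mmp9). The median log2 fold change of the 9 was 0.67, against 0.02 over all genes tested. For none of the 9 did all DSS libraries lie above all control libraries, as 9.26% of genes did. By limma, 1 gene (Mmp8) was called without DSS library c and 2 (Mmp8 and Mmp9) without the 2 shallowest DSS libraries.

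The third comparison sets the treatments directly against each other, with limma on the recovered reads. Mmp2, Mmp10, Mmp12 and Mmp13 were higher in AOM+DSS than in DSS, 4 of 9, where 2.27% of 15801 genes were called higher. The median log2 fold change of the 9 was 3.02, against 0.04 over all genes tested. All AOM+DSS libraries lay above all DSS libraries for 8 of the 9, all but Mmp8, against 8.83% of genes. Mmp3, Mmp8, Mmp9, Mmp14 and Timp1 did not pass, with differences of 0.91 to 3.50 on the log2 scale. The number of calls changed when libraries were left out, which also leaves fewer samples to test with. It was 1 without AOM+DSS library a, 1 without AOM+DSS library b and 2 without DSS library d. Without the 2 deepest DSS libraries it was 7, and without the 2 shallowest it was 1.

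**Figure D1:**
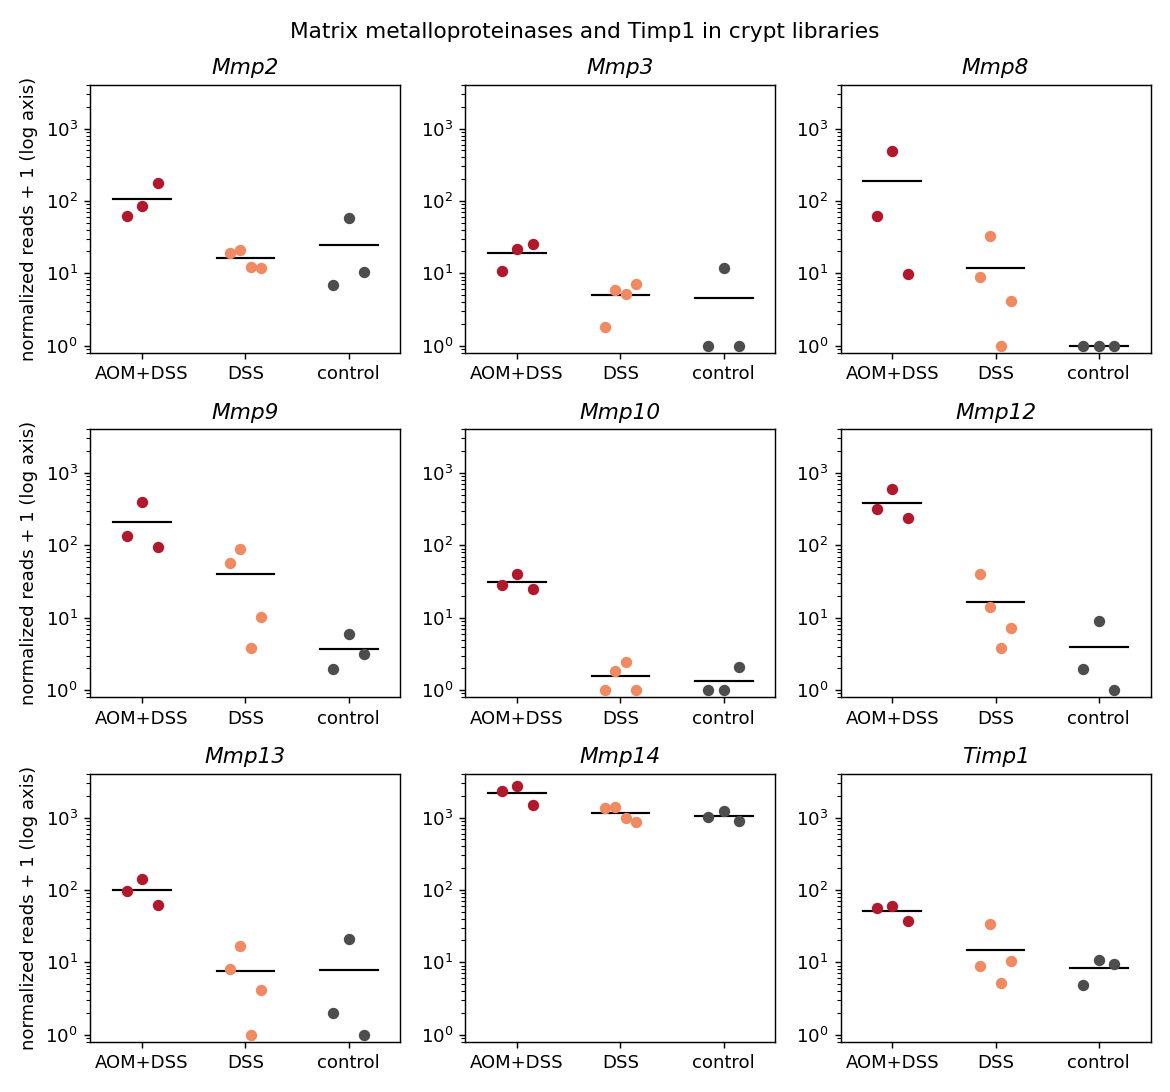
Normalized reads + 1 of each gene on a log axis, with 1 point per library in AOM+DSS (3), DSS (4) and control (3) and a bar at the group mean. Mmp10 lies between 24.3 and 38.9 in AOM+DSS and at 1.42 or lower in every other library (values before adding 1), while Mmp14 lies at 870.1 or higher everywhere.

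**Figure D2:**
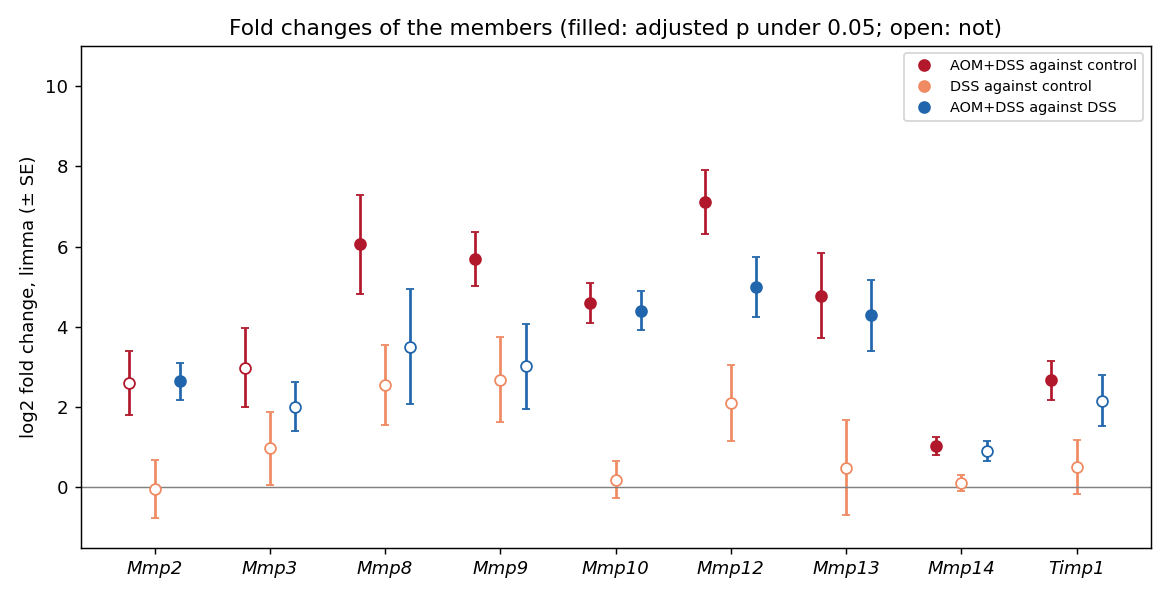
Limma log2 fold changes (y axis, with standard errors as bars) of the 9 genes for the 3 comparisons; filled points passed an adjusted p of 0.05. All points of DSS against control are open, and Mmp10, Mmp12 and Mmp13 passed in both comparisons of AOM+DSS.

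The gelatinases Mmp2 and Mmp9 digest denatured collagen and the collagen of basement membranes. Mmp2, in the gut mostly a fibroblast product, had 61.7, 82.7 and 173 normalized reads in AOM+DSS libraries a to c. It had 18.2, 19.8, 11.3 and 10.9 in DSS libraries a to d, and 5.79, 56.3 and 9.53 in control libraries a to c. Every AOM+DSS library lay above every DSS and control library, but control library b (56.3) came close to the lowest of them (61.7). Mmp2 rose by 2.64 ± 0.46 on the log2 scale in AOM+DSS against DSS (SE; limma adjusted p = 0.0227). That call was lost without AOM+DSS library a or b, DSS library c or d, or the 2 shallowest DSS libraries (limma adjusted p of 0.0619 to 0.145). Against control, the log2 fold change was 2.15 in AOM+DSS (DESeq adjusted p = 0.225) and -0.67 in DSS (adjusted p = 1), both in the authors' deposited table. Without control library b, which held the most of every non-epithelial marker list of its group, limma gave 3.52 for AOM+DSS against control (adjusted p = 0.00736). Summed over 12 fibroblast markers, normalized reads were 4117 to 5661 in AOM+DSS, 594 to 1293 in DSS and 560.0 to 2773 in control. Without Fn1, which holds much of the AOM+DSS sums, the other 11 summed to 912, 581 and 4420 in AOM+DSS libraries a to c, 380.0 to 1194 in DSS and 417 to 2371 in control. Mmp2 and both sums were highest in library c within AOM+DSS and in library b within control. Within DSS the sums were highest in library a and Mmp2 in library b. The lead of DSS library a rests on 1 marker, Thy1, with 901 normalized reads there and 73.6 to 105 in the other DSS libraries. Its place in the order therefore says little of the other fibroblast markers. The part of fibroblast content in the Mmp2 result was not tested.

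Mmp9, a gelatinase stored in neutrophil granules and made by macrophages, had 135, 401 and 92.8 normalized reads in AOM+DSS libraries a to c. It had 56.9, 88.2, 2.83 and 9.31 in DSS libraries a to d, and 0.965, 4.94 and 2.12 in control libraries a to c. DSS libraries a and b stood near the lowest AOM+DSS library, while DSS library c lay inside the control range. The authors' deposited table gave a log2 fold change of 6.29 for AOM+DSS against control (DESeq adjusted p = 0.0127) and 3.88 for DSS against control (adjusted p = 0.191). By limma, the AOM+DSS difference from control was 5.70, and 5.09 without AOM+DSS library b. AOM+DSS exceeded DSS by 3.02 ± 1.05 (SE; limma adjusted p = 0.238), which did not pass. Without the 2 shallowest DSS libraries, c and d, limma gave 4.44 for DSS against control (adjusted p = 0.0180), and without the 2 deepest, a and b, it gave 4.78 for AOM+DSS against DSS (adjusted p = 0.0161).

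Neutrophil markers moved with Mmp9. Their sums were 4312, 12292 and 2623 normalized reads in AOM+DSS libraries a to c, 1094, 5564, 211 and 315 in DSS libraries a to d, and 29.0, 32.6 and 15.9 in control libraries a to c. Within AOM+DSS and within DSS, the order of libraries by this sum was the order by Mmp9. Of 10 tested markers, 7 rose in AOM+DSS and 5 in DSS by DESeq in the authors' deposited table, and Camp, Ngp, Mpo and Retnlg were at 0 in all control libraries. Elane was at 0 in every library of every group, and Mpo averaged only 0.524 normalized reads in AOM+DSS and 0.206 in DSS. The part of neutrophil content in the Mmp9 result was not tested.

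The collagenases Mmp8 and Mmp13 cut intact fibrillar collagen. Mmp8, the neutrophil collagenase, had 61.0, 490.5 and 8.84 normalized reads in AOM+DSS libraries a to c. It had 7.90, 32.1, 0 and 3.10 in DSS libraries a to d and 0 in all control libraries. The 3 AOM+DSS libraries spanned 55.5-fold, the widest spread among the 9 genes in that group, and AOM+DSS library c lay within the DSS range. Pooled over libraries, 683 reads in AOM+DSS and 51 in DSS stood against 0 in control. With a floor of 3 counts over the control group, Mmp8 was at least 197-fold higher in AOM+DSS and at least 13.3-fold higher in DSS. These limits rest on library b of each group, with 593 of the AOM+DSS reads and 39 of the DSS reads; without it they were 39.9-fold in AOM+DSS and 4.58-fold in DSS. Against control, DESeq did not call Mmp8 in AOM+DSS (adjusted p = 0.214) or in DSS (adjusted p = 0.656) in the authors' deposited table. In AOM+DSS it was called by limma (log2 6.06, adjusted p = 0.0184). Without AOM+DSS library a, control library a or control library c it did not pass (limma adjusted p of 0.0718, 0.0820 and 0.0764). Nor did it pass with a pseudocount of 10 (0.0834). The difference itself stayed at 6.06 without any 1 control library, as all controls were at 0, and was 6.12 without AOM+DSS library a. The order of libraries by Mmp8 was that of the neutrophil markers within AOM+DSS and within DSS, and their part in the Mmp8 values was not tested.

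Mmp13, the main interstitial collagenase of rodents, had 95.9, 141 and 60.8 normalized reads in AOM+DSS libraries a to c. It had 7.11, 15.7, 0 and 3.10 in DSS libraries a to d, and 0.965, 19.8 and 0 in control libraries a to c. The lowest AOM+DSS library stood above the highest of all others, which was control library b. Mmp13 rose by 3.84 on the log2 scale in AOM+DSS against control (DESeq adjusted p = 0.000657, the authors' deposited table) and by 4.29 ± 0.88 against DSS (SE; limma adjusted p = 0.0427). In DSS against control the authors' deposited table gave -0.09 (DESeq adjusted p = 1), and limma gave 0.50. By limma, the AOM+DSS call against control was lost without AOM+DSS library a (adjusted p = 0.0867) or b (0.0749), or control library a (0.103) or c (0.0820). Control library b held 20 of the 21 control reads, and without it limma gave 6.08 for AOM+DSS against control (adjusted p = 0.00158), where it gave 4.78 with all libraries. The call against DSS was lost without AOM+DSS library a, b or c, DSS library a or d, or the 2 shallowest DSS libraries (limma adjusted p of 0.0523 to 0.197). It held at 4.88 without DSS library b and 3.53 without DSS library c.

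Stromelysins Mmp3 and Mmp10 are close relatives that cut proteoglycans, laminin and fibronectin and activate other metalloproteinases. In human gut wounds Mmp10 is known from migrating epithelium and Mmp3 from the stroma below it. Mmp10 had 27.5, 38.9 and 24.3 normalized reads in AOM+DSS libraries a to c. It had 0, 0.824, 1.42 and 0 in DSS libraries a to d, and 0, 0 and 1.06 in control libraries a to c. AOM+DSS libraries varied 1.60-fold among themselves, the narrowest spread of the 9 genes in that group. Pooled, 106 reads in AOM+DSS stood against 2 in DSS, a ratio of 58.7 (95% interval 15.8 to 490.8), and against 1 in control, a ratio of 91.7 (16.1 to 3656). These intervals cover counting error only. Mmp10 rose in AOM+DSS against DSS by 4.40 ± 0.49 (SE; limma adjusted p = 0.00315) and against control by 6.42 (DESeq adjusted p = 0.00398, the authors' deposited table). It passed under each of 12 alternative settings against DSS and each of 11 against control.

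Mmp3 had 9.67, 20.7 and 24.3 normalized reads in AOM+DSS libraries a to c. It had 0.790, 4.94, 4.25 and 6.20 in DSS libraries a to d, and 0, 10.9 and 0 in control libraries a to c. Control library b lay above AOM+DSS library a, and the other controls had no Mmp3 read. The log2 fold change was 2.33 in AOM+DSS against control (DESeq adjusted p = 0.406, the authors' deposited table) and 2.01 ± 0.61 against DSS (SE; limma adjusted p = 0.163), and neither passed. Without control library b, limma gave 4.17 for AOM+DSS against control (adjusted p = 0.00491). DSS did not differ detectably from control at this depth (log2 0.16, DESeq adjusted p = 1, the authors' deposited table). The read counter is not given in the sources used here, so reads that fit both Mmp3 and Mmp10 may have been assigned to either.

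Mmp12, the elastase of macrophages, had 318, 609 and 236 normalized reads in AOM+DSS libraries a to c. It had 39.5, 13.2, 2.83 and 6.20 in DSS libraries a to d, and 0.965, 7.90 and 0 in control libraries a to c. AOM+DSS lay far above both other groups, and DSS libraries c and d lay inside the control range. Mmp12 had the lowest adjusted p of the 9 genes against control, with a log2 fold change of 7.03 (DESeq adjusted p = 2.20e-05, the authors' deposited table). Against DSS it rose by 4.998 ± 0.75 (SE; limma adjusted p = 0.0127), or by 5.62 without DSS library a. By limma, the AOM+DSS difference from control was 7.11 with all libraries, 7.999 without control library b and 6.42 without control library c. In DSS against control it did not pass (log2 2.38, DESeq adjusted p = 0.279, the authors' deposited table). The call against DSS was lost without AOM+DSS library a (adjusted p = 0.0760), AOM+DSS library b (0.0794) or the 2 shallowest DSS libraries (0.0636).

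Macrophage markers were also higher in AOM+DSS. Over 11 markers they summed to 4248 to 8407 normalized reads in AOM+DSS, 1199 to 2405 in DSS and 538 to 2107 in control. DESeq called 7 of 12 markers higher in AOM+DSS against control and 1 of 12 in DSS in the authors' deposited table. C1qa, a subunit of complement C1q made by tissue macrophages, rose by 3.01 in AOM+DSS against control (DESeq adjusted p = 2.53e-05, the authors' deposited table) and by 2.52 against DSS (limma adjusted p = 0.0134). The log2 fold changes of Mmp12 were 7.03 and 4.998 in the same comparisons. The part of macrophage content in the Mmp12 result was not tested.

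Mmp14, a membrane-anchored enzyme that cuts collagen at the cell surface and activates Mmp2, had the highest level per length of the 9 genes in every group. It had 2342, 2716 and 1486 normalized reads in AOM+DSS libraries a to c. It had 1347, 1397, 979.9 and 870.1 in DSS libraries a to d, and 1021, 1237 and 881 in control libraries a to c. AOM+DSS lay above both other groups without overlap, and the DSS and control ranges overlapped. Mmp14 rose by 1.06 on the log2 scale in AOM+DSS against control (DESeq adjusted p = 0.0150, the authors' deposited table). It differed by 0.91 ± 0.24 against DSS (SE; limma adjusted p = 0.107) and by 0.13 in DSS against control (DESeq adjusted p = 0.992, the authors' deposited table), and neither passed. By limma, the call against control was lost without AOM+DSS library a or b or control library a or c (adjusted p of 0.0676 to 0.0998). Against DSS, limma called Mmp14 without AOM+DSS library c (adjusted p = 0.0364) and without the 2 deepest DSS libraries (0.0314).

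Timp1, a secreted inhibitor that binds most of these enzymes, had 55.8, 59.6 and 36.5 normalized reads in AOM+DSS libraries a to c. It had 7.90, 33.0, 4.25 and 9.31 in DSS libraries a to d, and 3.86, 9.88 and 8.47 in control libraries a to c. DSS library b came near the lowest AOM+DSS library, and the other DSS libraries lay at control level. Timp1 rose by 2.77 on the log2 scale in AOM+DSS against control (DESeq adjusted p = 0.0119, the authors' deposited table). Its difference was 2.16 ± 0.63 against DSS (SE; limma adjusted p = 0.1496) and 0.88 in DSS against control (DESeq adjusted p = 0.712, the authors' deposited table), and neither passed. By limma, the call against control was lost without AOM+DSS library a (adjusted p = 0.0652) or control library a (0.0619) or c (0.0501). Against DSS, limma called Timp1 without DSS library b (adjusted p = 0.0493) and without the 2 deepest DSS libraries (0.0256).

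Libraries within a group shared their high values across several of the genes. AOM+DSS library b held the highest level of 7 of the 9 genes (Mmp8, Mmp9, Mmp10, Mmp12, Mmp13, Mmp14 and Timp1), and AOM+DSS library c that of Mmp2 and Mmp3. DSS library b held the highest level of 6 genes. Control library b held the highest level of 7 genes, and Mmp10 was highest in control library c. Library b was also the one with the most neutrophil and macrophage markers in AOM+DSS, the most neutrophil markers in DSS, and the most fibroblast and macrophage markers in control.

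**Figure D3:**
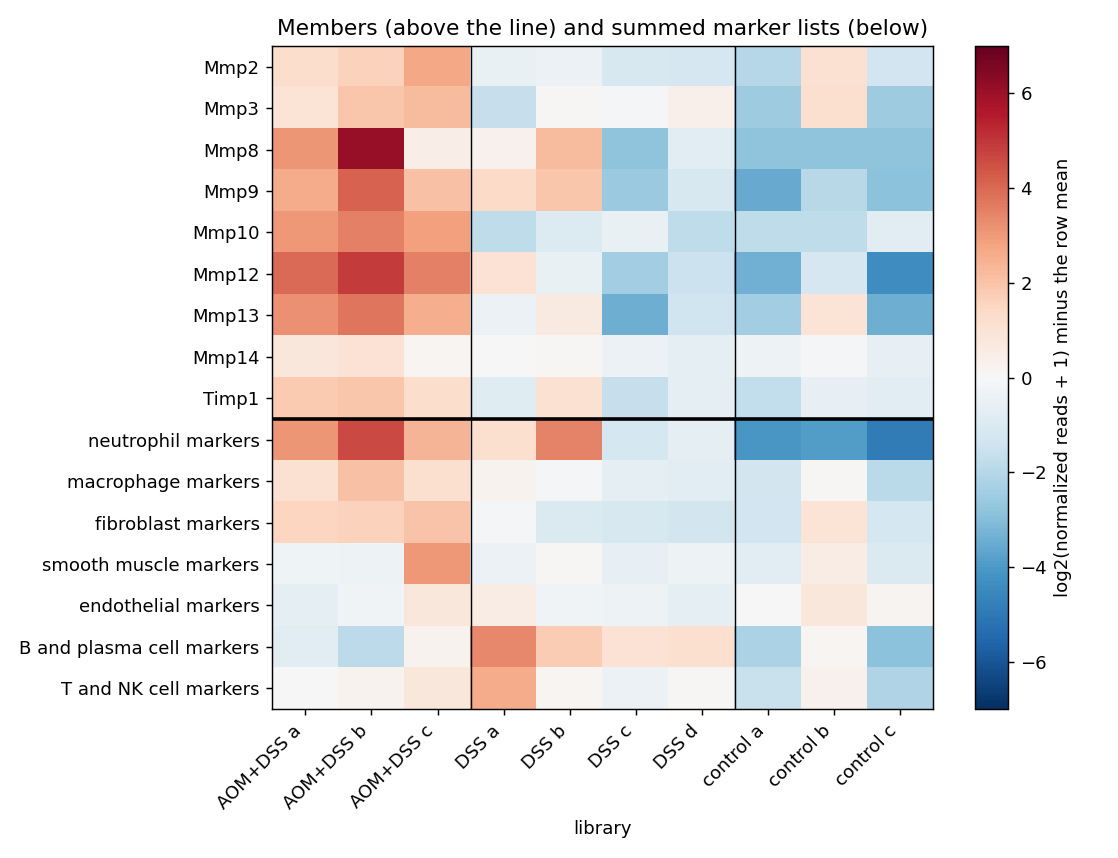
Log2(normalized reads + 1) minus the mean of the row, for the 9 genes (above the line) and the summed markers of 7 cell types (below), with the 10 libraries as columns. Mmp8 and Mmp9 are highest in AOM+DSS library b, as are the neutrophil markers, and the smooth muscle markers stand out in AOM+DSS library c.

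To compare genes with each other, mean normalized reads were divided by the length in kb of the longest coding transcript in GENCODE M21. In AOM+DSS the order of these levels was Mmp14 (674), Mmp12 (107), Mmp8 (77.0), Mmp9 (66.0), Timp1 (57.3), Mmp13 (37.1), Mmp2 (34.4), Mmp10 (17.6) and Mmp3 (10.1). The libraries of neighbours in this order overlapped, except between Mmp14 and Mmp12 and between Mmp10 and Mmp3. In DSS, Mmp14 stood at 355 reads per kb, followed by Timp1 (15.4) and Mmp9 (12.4). Control had Mmp14 at 323 reads per kb, followed by Timp1 (8.38) and Mmp2 (7.76). In DSS and in control, Mmp14 was the only gene whose libraries did not overlap with those of its neighbour.

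The share of Mmp14 among the 8 enzymes was lower in every AOM+DSS library than in any DSS or control library. Mmp14 made up 75.6%, 57.9% and 69.1% of their summed reads per kb in AOM+DSS libraries a to c. Its share was 91.0%, 87.8%, 97.3% and 95.0% in DSS libraries a to d, and 99.1%, 91.5% and 98.4% in control libraries a to c. The sum itself was 664 to 1450 reads per kb in AOM+DSS, 283 to 491 in DSS and 277 to 418 in control, and AOM+DSS overlapped with neither. Mmp12 took 9.21% to 11.6% of the sum in AOM+DSS, and at most 2.40% in DSS and 0.52% in control. Mmp8 took 13.95% in AOM+DSS library b and 0.55% in AOM+DSS library c, while Mmp2 took 8.49% in library c and 1.85% in library b. Timp1 per kb came to 4.65% to 6.61% of the 8 enzymes in AOM+DSS, 1.55% to 7.59% in DSS and 1.38% to 3.47% in control. As a percentage of the other 7 enzymes, without Mmp14, the values were lower in AOM+DSS than in control: 11.04% to 27.1% in AOM+DSS, 21.8% to 74.9% in DSS and 31.5% to 219% in control. The control values rest on few reads. In control libraries a and c the 7 enzymes summed to 2.82 and 4.38 reads per kb, and Timp1 had 4 and 8 reads. Control library b, with a sum of 35.5, gave 31.5%, near the 27.1% of AOM+DSS library a. All these percentages are shares of transcripts and say nothing of active enzyme.

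**Figure D4:**
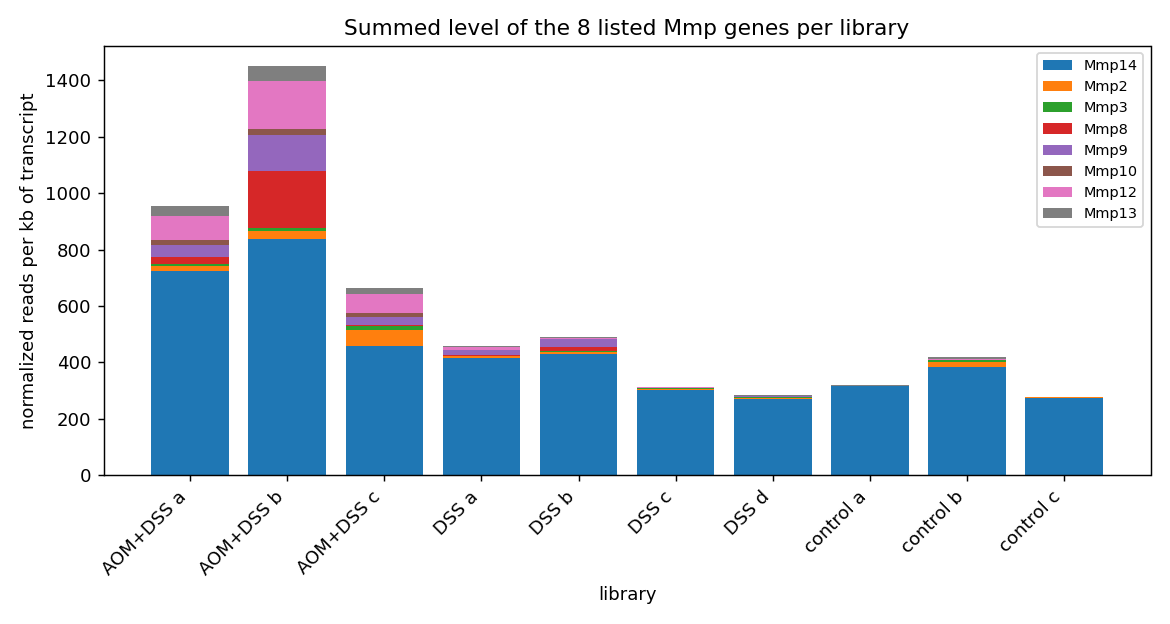
Stacked bars of normalized reads per kb of transcript for the 8 Mmp genes in each of the 10 libraries. Bars reach 664 to 1450 in AOM+DSS, 283 to 491 in DSS and 277 to 418 in control, and the part above Mmp14 is visible mainly in AOM+DSS.

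The Mmp cluster of chromosome 9 held 10 genes of the table, in the order Mmp13, Mmp12, Mmp1b, Mmp3, Mmp1a, Mmp10, Mmp8, Mmp27, Mmp20 and Mmp7 (gene order from RefSeq). Mmp1a, Mmp1b and Mmp27 were at 0 in all groups, although Mmp1b and Mmp1a lie on either side of Mmp3. Mmp7 (matrilysin), at the far end, had means of 3708 normalized reads in AOM+DSS, 68.0 in DSS and 6.38 in control in the authors' deposited table. It rose by 9.18 on the log2 scale in AOM+DSS against control (DESeq adjusted p = 0.00295, the authors' deposited table) and by 5.65 against DSS (limma adjusted p = 0.00626). Mmp20, the enamel enzyme next to it, had means of 5.43, 0.997 and 0 in AOM+DSS, DSS and control in the authors' deposited table, and did not pass (DESeq adjusted p = 0.5097 in AOM+DSS). Mmp12 and Mmp10, which rose in AOM+DSS against control, each border a gene with no read (Mmp1b and Mmp1a).

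**Figure D5:**
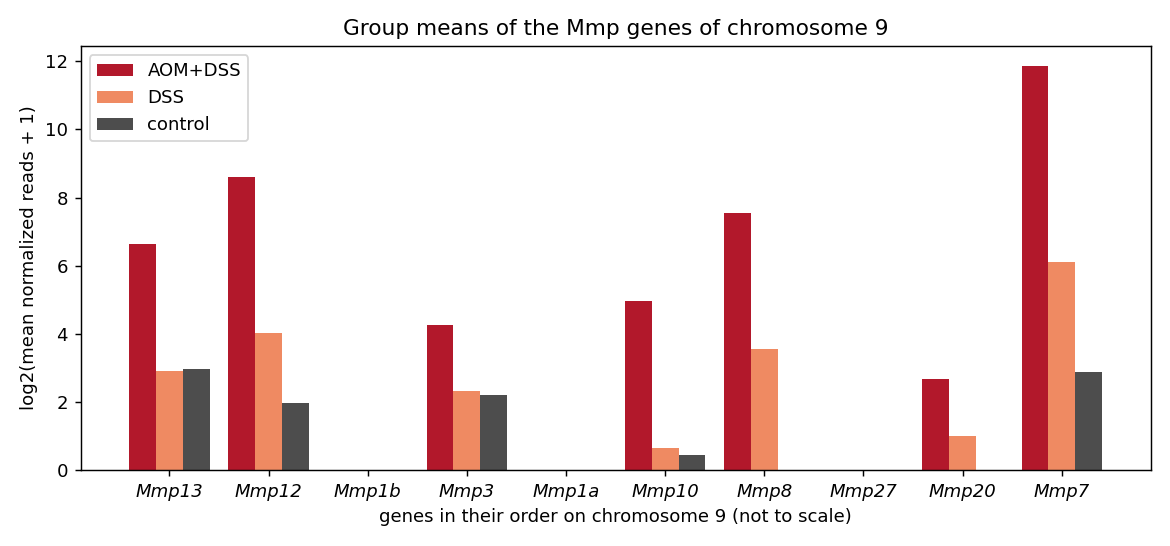
Log2(mean normalized reads + 1) of the 10 Mmp genes of the chromosome 9 cluster in AOM+DSS, DSS and control, in gene order and not to scale. Mmp1b, Mmp1a and Mmp27 have no bar, and Mmp7, Mmp12 and Mmp8 are the tallest in AOM+DSS.

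Among the other 15 Mmp genes, 10 could be tested, and DESeq called 3 higher in AOM+DSS and 1 in DSS in the authors' deposited table. Their median log2 fold change was 2.62 in AOM+DSS and 0.81 in DSS in the authors' deposited table. Limma, which tested 9 of them in DSS, gave medians of 2.18 and 0.90. Over all tested genes, DESeq called 5.54% higher in AOM+DSS and 2.61% in DSS, and limma called 2.27% higher in AOM+DSS against DSS. The same shares apply to the counts of each gene list below. Mmp28 (epilysin), an enzyme of keratinocytes and other epithelial cells, rose by 2.61 in AOM+DSS (adjusted p = 2.54e-05) and by 2.46 in DSS (adjusted p = 6.44e-05) by DESeq in the authors' deposited table. It had 242 to 570 normalized reads in AOM+DSS, 218 to 523 in DSS and 54.1 to 90.9 in control. Between AOM+DSS and DSS it differed by 0.14 (limma adjusted p = 0.888). Mmp11 (stromelysin 3), a product of fibroblasts around tumors, rose by 2.64 in AOM+DSS against control (DESeq adjusted p = 0.0148, the authors' deposited table) and by 2.86 against DSS (limma adjusted p = 0.0161).

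Of 5 other inhibitors, Timp2 was the only 1 called in AOM+DSS against control, with a log2 fold change of 1.44 (DESeq adjusted p = 0.0117, the authors' deposited table). Timp2, which also takes part in the activation of Mmp2 by Mmp14, had 337, 482 and 313 normalized reads in AOM+DSS libraries a to c, against 54.3 to 140 in DSS and 101 to 215 in control. It rose by 2.28 in AOM+DSS against DSS (limma adjusted p = 0.0127), again the only call among the 5. The median log2 fold change of the 5 was 1.11 in AOM+DSS and 0.07 in DSS against control in the authors' deposited table. None of the 5 passed in DSS against control by DESeq or limma. Timp3, the matrix-bound inhibitor with the highest mean, had a log2 fold change of -0.34 there (DESeq adjusted p = 1, the authors' deposited table).

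Plasminogen activation yields plasmin, which can cut metalloproteinase precursors. Of its 8 listed genes, DESeq called 3 higher in AOM+DSS and 1 in DSS in the authors' deposited table, with median log2 fold changes of 3.24 and 1.63. Plaur, the urokinase receptor, rose by 3.79 in AOM+DSS (adjusted p = 4.21e-09) and by 2.72 in DSS (adjusted p = 2.33e-05) by DESeq in the authors' deposited table. Plat, tissue plasminogen activator, had 982, 2217 and 380.0 normalized reads in AOM+DSS, 217, 121, 72.2 and 119 in DSS, and 7.72, 12.8 and 3.18 in control. It rose by 7.24 in AOM+DSS against control (DESeq adjusted p = 0.00550, the authors' deposited table) and by 2.93 against DSS (limma adjusted p = 0.0312).

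Of 15 Adam and Adamts proteases, DESeq called 5 higher in AOM+DSS against control and none in DSS in the authors' deposited table, and limma called none of the 12 it could test in DSS. The median log2 fold change of the 15 in that table was 0.90 in AOM+DSS and 0.28 in DSS. Adam10, a sheddase of cell surface proteins, rose by 0.90 (adjusted p = 0.000570) and Adam8, a protease of leukocytes, by 4.12 (adjusted p = 0.00151) in AOM+DSS by DESeq in the authors' deposited table. Adam12 had 127, 118 and 27.6 normalized reads in AOM+DSS, 4.74, 3.30, 1.42 and 3.10 in DSS, and 0, 8.89 and 1.06 in control. It rose by 4.78 against control (DESeq adjusted p = 0.0162, the authors' deposited table) and by 4.26 against DSS (limma adjusted p = 0.0123). Adamts2, which trims procollagen, was the other call against DSS among the 12 tested, at 2.38 (limma adjusted p = 0.0494). It rests on few reads, with 3.72, 4.14 and 13.3 normalized reads in AOM+DSS and 0.790, 0.824, 0 and 0 in DSS. Control had 0, 8.89 and 0, and AOM+DSS against control did not pass (DESeq adjusted p = 0.999, the authors' deposited table).

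Of 16 cytokines and receptors known to induce metalloproteinases, DESeq called 8 higher in AOM+DSS and 5 in DSS in the authors' deposited table, with median log2 fold changes of 2.33 and 1.98. Osmr, the oncostatin M receptor, rose by 4.56 in AOM+DSS (adjusted p = 7.48e-15) and by 2.83 in DSS (adjusted p = 2.41e-06) by DESeq in the authors' deposited table. It was the only call among the 15 that could be tested in AOM+DSS against DSS, at 1.72 (limma adjusted p = 0.0193). Its levels were 477, 428 and 262 normalized reads in AOM+DSS, 138, 110, 77.9 and 141 in DSS, and 14.5, 30.6 and 4.24 in control. Tnf, tumor necrosis factor, rose by 2.91 in AOM+DSS (adjusted p = 3.44e-12) and by 2.36 in DSS (adjusted p = 2.68e-08) by DESeq in the authors' deposited table. Osm, oncostatin M, rose by 6.44 in AOM+DSS (adjusted p = 0.000356) and by 4.84 in DSS (adjusted p = 0.00793) by DESeq in the authors' deposited table. Il1a, interleukin 1 alpha, rose by 6.37 in AOM+DSS (adjusted p = 0.000581) and by 5.01 in DSS (adjusted p = 0.00785) by the same test.

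Of 12 AP-1 and Ets transcription factor genes, DESeq called 1 higher in AOM+DSS against control and none in DSS in the authors' deposited table. Over all tested genes, 5.54% were called higher in AOM+DSS, so 1 of 12 lies near that share. Limma called none of the 5 that could be tested in DSS. The median log2 fold change of the 12 was 0.22 in AOM+DSS and 0.21 in DSS in the authors' deposited table. The 1 called was Etv5, with 584 to 1554 normalized reads in AOM+DSS, 368 to 564 in DSS and 266 to 347 in control, a log2 fold change of 1.74 for AOM+DSS against control (DESeq adjusted p = 0.0329, the authors' deposited table). Elf3, an epithelial Ets factor with the highest mean of the list, had a log2 fold change of 0.23 in DSS against control (DESeq adjusted p = 1, the authors' deposited table).

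For each of the 9 genes, the genes with the most similar pattern were taken by Pearson's r of log2(normalized reads + 1) over the 10 libraries, among 10444 genes. The libraries share their groups, so r mostly reflects differences between groups and is a description. Mmp2 was most like Mcam (r = 0.979), Lix1l (0.957) and Ltbp4 (0.957). Mmp3 had the least similar partners, with Ptrf (0.918), Zfp651 (0.912) and C4b (0.898) closest. Mmp8 was most like Mtap (0.987), Eml2 (0.982) and Chi3l3 (0.981), and Mmp9 was most like Aebp2 (0.988), Rmdn2 (0.984) and Emilin2 (0.983). Mmp10 was most like Cfi (0.991), Defa17 (0.975) and Defa21 (0.974). Defa17 and Defa21 are alpha-defensin genes with near-identical copies, so their counts are uncertain. Both were at 0 in DSS and control and entered the search through AOM+DSS alone. Mmp12 was most like Fcgr1 (0.982), Clec5a (0.978) and Basp1 (0.975), of which Fcgr1 and Clec5a encode receptors of myeloid cells. Mmp13 was most like Myh10 (0.972), Ms4a7 (0.968) and Col4a2 (0.968). Mmp14 was most like Dock4 (0.983), Samd5 (0.982) and Rbm24 (0.979), and Timp1 was most like Pthlh (0.951), Nav1 (0.945) and Cdkl2 (0.941).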

How the data were processed

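Poly(A) RNA of distal colon crypts was sequenced with a kit that does not mark strand, per the labels' protocols. Per the submitters' processing notes, the authors mapped reads to mm9 with TopHat2 2.0 and compared groups with DESeq. For the read counter, the annotation and the DESeq release of the authors, the sources used here give nothing. Per the file headers, the signal values are group means of normalized read counts. The deposited fold change is the treated mean as a ratio to the control mean, and the authors' log2 column is the logarithm of that ratio. The authors' p-values come from DESeq with Benjamini-Hochberg adjustment, per the file headers. The header of the AOM+DSS table speaks of 4 replicates where the labels list 3, and its means resolve into 3 libraries.

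Whole reads per library were recovered from means printed with 15 digits, where exactly 1 combination of whole reads matched. This held for 99.9% of genes in AOM+DSS, 89.0% in DSS (the lowest mean without a match to 1 combination was 1383) and 99.5% in control. In simulated means, 0 were wrong. Recovered genes hold 95.3% of the mean total in AOM+DSS, 31.5% in DSS and 84.5% in control. Libraries of a group differed by more than sampling noise, with a chi-square per degree of freedom of at least 4.37.

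Comparisons with control used the authors' adjusted p under 0.05. AOM+DSS was set against DSS with limma 3.58.1 (R 4.3.3, trend) on log2(normalized recovered reads + 1), adjusted by Benjamini-Hochberg over all genes recovered in both groups. Fold changes from limma are differences of mean values on that scale and can lie above or below the log2 ratio of group means. In data simulated for AOM+DSS against DSS (15434 genes), 56% of genes changed 2-fold and 100% of those changed 4-fold were called by limma. The simulation changed only genes of higher mean and gave all genes the same spread between libraries. Its percentages therefore do not carry over to genes with few reads or a wide spread. In the real data, Mmp3, Mmp8, Mmp9 and Timp1 differed by 2.01 to 3.50 on the log2 scale and did not pass. Alternatives were limma in place of the authors' test, a minimum mean of 10, a pseudocount of 10, upper-quartile scaling and left-out libraries.

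The 9 genes and 14 gene lists were chosen with earlier results of these data known. All 9 genes are named. From each pathway list, up to 3 called genes per comparison were named in order of adjusted p, or the gene with the highest mean where none was called. The 3 genes most like each of the 9 were taken among genes with a mean of at least 20. A result that this rule selects is not reported here, although counts include it. Mmp1a, Mmp1b, Mmp20, Mmp27, C1qa and the other named cell type markers are named beyond this rule, a choice made with their values known.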

Additional observations from a re-analysis of the deposited data

How the results depend on the processing

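No paired analysis was possible because the recovered libraries carry no replicate number. Against control, 6 of the 9 genes were called in AOM+DSS, and 6 or 7 under limma, a minimum mean of 10, a pseudocount of 10 or upper-quartile scaling. Leaving out 1 library gave 3 to 9 calls: 3 without AOM+DSS library a, control library a or control library c, and 9 without control library b. Without control library b and AOM+DSS library c together, an alternative chosen after seeing the data, 9 were called. In DSS against control, the count of 0 became 0 to 1 with 1 library left out (Mmp8, without DSS library c) and 2 without the 2 shallowest DSS libraries (Mmp8 and Mmp9). In AOM+DSS against DSS, the count of 4 became 1 to 5 with 1 library left out, 7 without the 2 deepest DSS libraries and 1 without the 2 shallowest. A left-out library also leaves fewer samples to test with. The share of all genes called was computed for limma itself but for none of the other alternatives.

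No log2 fold change of AOM+DSS, against control (97 values) or DSS (108 values), turned its sign under an alternative. In DSS against control 17 of 111 did, none of them past the threshold, and the cause was not tested. Some values counted against control could not turn. The minimum mean of 10 kept the authors' fold changes there, and Mmp8 was at 0 in every control library. Mmp13, at -0.09 by the authors' test, was 0.50 by limma, 0.062 with a pseudocount of 10, 0.48 with upper-quartile scaling and 1.76 without the 2 shallowest DSS libraries. It was 0.25, 1.25 and 0.58 without DSS library a, c or d, and 0.091 and 1.79 without control library a or b. Mmp2, at -0.67, was 0.068 and 0.087 without DSS library c or d, 0.88 without control library b and 0.32 without the 2 shallowest DSS libraries. Mmp10 was -0.058 without DSS library c, Timp1 was -0.019 without DSS library b, and without the 2 deepest DSS libraries Timp1 was -0.11 and Mmp14 -0.17. With 10 added to both group means, the log2 ratio for AOM+DSS against control was 1.96 for Mmp10, 4.11 for Mmp9 and 4.94 for Mmp12, genes with 1, 8 and 9 pooled control reads.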
